A study of Mus musculus with 43 samples.

Results

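Hsph1 (ENSMUSG00000029657) is a heat-shock protein gene and was 1 of 10127 genes in a table of RNA levels from 4 hypothalamic nuclei. It was picked by a rule that used measured values: its level was lower in fasted than in fed libraries in every nucleus. The fasting difference of Hsph1 is therefore given as a description with no test, and its own tests are kept to its level between nuclei and to the genes that moved with it between mice of the same nucleus, nutritional state and batch. Other chaperone genes were tested for fasting. All mice were male Snord116+/-P mice, with a paternal deletion of the Snord116 cluster (B6(Cg)-Snord116tm1.1Uta/J, strain label C57/BL6), adult (up to 19 weeks old, with a lower age of 16 or 17 weeks depending on the passage of the study), and were either fed ad libitum or fasted for 24 hours. No wild-type library was among the samples, so every comparison here is within deletion mice. The arcuate nucleus (ARC), dorsomedial hypothalamus (DMH), paraventricular nucleus (PVN) and ventromedial hypothalamus (VMH) were captured by laser from frozen sections, and 41 of 43 libraries, from 12 mice in 3 preparation batches, could be matched to a column. These held 4 fasted and 5 fed libraries in ARC, 5 and 6 in DMH, 5 and 5 in PVN, and 6 and 5 in VMH. Values are counts-per-million (CPM), and mice are named by state and number as in the labels (Fast-86, Fed-127).

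Hsph1 encodes a chaperone of the Hsp110 family, relatives of Hsp70 that have lost most refolding activity of their own. Hsp110 proteins bind Hsp70 and exchange its ADP for ATP, which lets Hsp70 release its client protein and take up another, and together with J-domain proteins they can pull aggregated protein apart. The gene is abundant in brain and is a classical target of heat-shock factor Hsf1, which binds repeats of a short inverted unit, the heat-shock element, when cells are warmed or hold unfolded protein.

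The gene lies on the minus strand of chr5:149614287-149636376 (GRCm38, GENCODE M21). It has 11 annotated transcripts, 7 of them protein coding, and no other annotated gene overlaps it: Wdr95 ends 2392 bases away on the left and the noncoding Gm20005 begins 5233 bases away on the right. Its reads are thus not shared with an overlapping gene in that annotation.

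RefSeq promoter windows on GRCm38.p6 (250 bases before to 50 after a start) held 2 windows for Hsph1, with starts at 149636336 and 149636315. They were searched on both strands for the heat-shock element with 2 units, TTCNNGAA, which reads the same on either strand, and for its form with 3 units, TTCNNGAANNTTC or GAANNTTCNNGAA, which contains the shorter motif. Both Hsph1 windows held the shorter motif at 2 places, of which 1 was part of a 3-unit match. The shorter motif was present in 8.52% of 32851 windows and the 3-unit motif in 0.603%. The sites are shown because Hsph1 and its partners are classed as heat-shock genes, and capitals mark the match in 30 bases.
Hsph1, 2 units, chr5:149636351-149636380, minus strand: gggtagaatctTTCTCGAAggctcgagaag
Hsph1, 3 units, chr5:149636287-149636316, minus strand: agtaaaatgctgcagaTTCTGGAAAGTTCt
Dnajb6, 3 units, chr5:29735844-29735873, plus strand: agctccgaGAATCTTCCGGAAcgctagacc
Hspe1, 3 units, chr1:55088051-55088080, plus strand: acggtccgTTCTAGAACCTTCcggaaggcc

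The 2-unit site of Hsph1 lay upstream of the annotated start of 10 of the 11 transcripts. The 3-unit site lay within an exon of 3 transcripts, in an intron of 2, upstream of the start of 5 and across the start of 1, and in the coding sequence of none. Of 66 other genes on the chaperone and cold-inducible lists described below that had a RefSeq window, 9 held the 2-unit motif (13.6% of genes, beside 8.52% of windows). The 3-unit motif was held by 4 of the 66, which is 6.06% of genes, where a gene could have more than 1 window. Of these, Hspd1 and Hspe1 held it in the same bases, so that stretch was counted for both. Dnajb6, a J-domain protein, and Hspe1, the mitochondrial Hsp10 co-chaperonin, were the 2 of these with values in the table, out of 28 measured genes with a window. A letter match is a description and was not tested for binding.

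The stretch ahead of every annotated Hsph1 start, chr5:149636377-149636586, minus strand, holds 2 matches to the CCAAT box (CCAAT or ATTGG, in capitals), a promoter motif found in 37.4% of the RefSeq windows. It is shown as the promoter of the gene whose level is described here.
Hsph1 upstream: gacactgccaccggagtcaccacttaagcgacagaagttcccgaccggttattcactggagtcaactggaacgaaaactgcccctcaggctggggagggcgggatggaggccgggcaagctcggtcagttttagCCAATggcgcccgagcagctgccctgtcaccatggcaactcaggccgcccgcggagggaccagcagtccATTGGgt

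Hsph1 was well measured. Library depth, read from the steps of the low values, was 1.94 to 8.23 M reads with a median of 4.10 M, and the estimated reads for Hsph1 were 801 to 8538 per library, with a median of 3271. The counting error of its level was thus at most 3.53%, for counting alone, since amplified reads are not independent molecules. In batch 1 the CPM of the listed genes summed to 604723 to 689010, against 554896 to 611613 in the other batches. Each nucleus had the highest mean of the markers listed for it: the summed PVN markers Avp and Crh, for example, averaged 838 CPM in PVN and 2.47 to 4.54 CPM elsewhere. In VMH captures the summed genes listed for DMH, Npvf, Hcrt and Pmch, reached 88.1 CPM, against 260.7 CPM or more in every DMH library. Whether captures held tissue from next to their nucleus was not tested. The tissue is bulk, so fewer cells of a type and less RNA per cell cannot be told apart.

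In fed ARC the Hsph1 level was 1099, 1200, 1533, 1084 and 1145 CPM in mice Fed-111, Fed-125, Fed-127, Fed-308 and Fed-313, and in fasted ARC it was 721, 680, 892 and 615 CPM in mice Fast-100, Fast-305, Fast-311 and Fast-86. The lowest fed library was 1.21 times the highest fasted library, so the states did not overlap. Mouse Fed-127 stood well above the other fed mice.

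In DMH the fed values were lowest in mouse Fed-92 at 749 CPM, with a median of 790 CPM and a highest value of 989 CPM, again in mouse Fed-127. The fasted values were 506, 537, 549, 565 and 302 CPM in mice Fast-100, Fast-101, Fast-305, Fast-311 and Fast-86. Mouse Fast-86 lay far under the other fasted mice in DMH and was also the lowest fasted mouse in ARC and, with Fast-85, the lowest in VMH, while in PVN its 576 CPM was within their range. The states were separated by a factor of 1.33.

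In PVN the fed values were 889, 993, 975, 978 and 909 CPM in mice Fed-111, Fed-125, Fed-127, Fed-308 and Fed-313, and the fasted values were 569, 548, 678, 665 and 576 CPM in mice Fast-100, Fast-101, Fast-305, Fast-311 and Fast-86. These were the tightest groups, with an SD of 46.7 CPM (n = 5) in fed and 60.0 CPM (n = 5) in fasted PVN. The factor between the states was 1.31.

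In VMH the fed values were 1153, 1474, 1377, 1264 and 1392 CPM in mice Fed-111, Fed-125, Fed-127, Fed-308 and Fed-313, and the 6 fasted values had a lowest of 739, a median of 842 and a highest of 988 CPM. The factor between the lowest fed and the highest fasted library was 1.17. Fasted VMH, at 739 to 988 CPM, covered nearly the same range as fed DMH, at 749 to 989 CPM, so a level of Hsph1 does not give the nutritional state unless the nucleus is known.

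**Figure D1:**
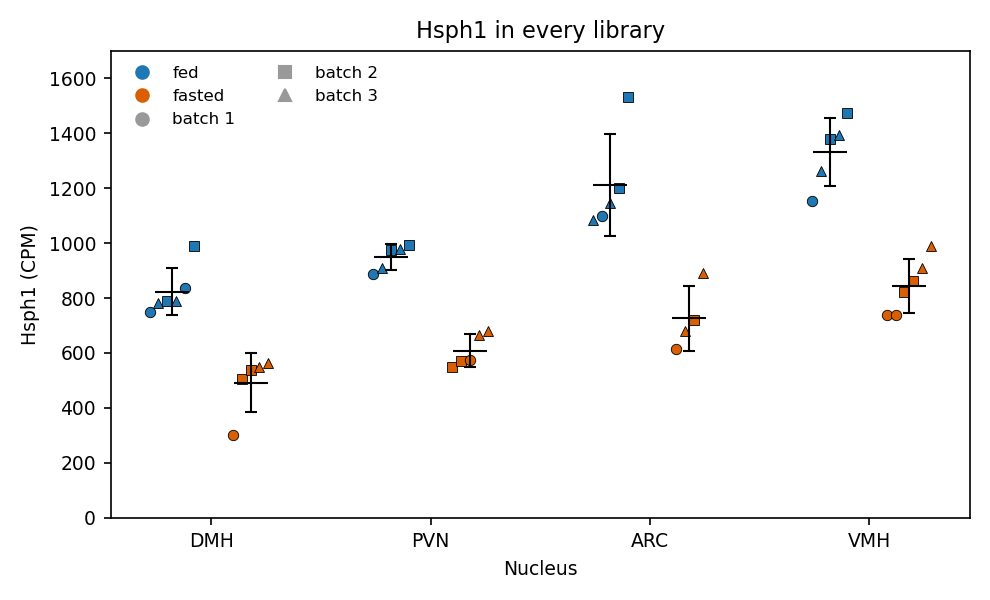
Hsph1 level in CPM (vertical axis) in each of the 41 libraries by nucleus, with fed libraries in blue, fasted libraries in orange and the batch as the symbol; horizontal bars are means and whiskers SD. Fasted libraries lie under fed libraries in every nucleus, the 302 CPM library of fasted DMH stands apart, and fasted VMH reaches the range of fed DMH.

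Over all libraries of a nucleus, Hsph1 averaged 1066 ± 276 CPM in VMH (SD, n = 11), 997 ± 296 CPM in ARC (n = 9), 778 ± 187 CPM in PVN (n = 10) and 672 ± 196 CPM in DMH (n = 11). The level was thus highest in VMH and lowest in DMH. Of the variance of the log2 level, 53.0% went with nutritional state, 33.1% with nucleus, 4.59% with batch and 0.543% with the combination of nucleus and state, and 8.84% was left after these terms. The difference between states was used to pick the gene, so its share is a description.

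The levels between nuclei were not used to pick the gene, and were compared with limma on log2(CPM + 0.5), averaged over both states with batch as a covariate. Benjamini-Hochberg adjustment ran over all 10121 genes tested and all 6 pairs of nuclei, and the threshold of 0.1 was that of the study. VMH exceeded DMH by 0.75 on the log2 scale (SE 0.07, adjusted p = 9.38e-13), a factor of 1.68, and VMH was higher in 10 of 10 mice with both nuclei. In that pair 23.2% of all genes passed the threshold. ARC exceeded DMH by 0.56 (SE 0.07, adjusted p = 1.85e-08), a factor of 1.47, with ARC higher in 9 of 9 mice, beside 19.3% of all genes called.

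VMH exceeded PVN by 0.49 (SE 0.07, limma adjusted p = 1.52e-07), a factor of 1.41, in 10 of 10 mice (29% of genes called). ARC exceeded PVN by 0.30 (SE 0.07, adjusted p = 0.00144), a factor of 1.23, in 9 of 9 mice (18.3% called), although in 1 mouse the gap was 0.003. PVN exceeded DMH by 0.26 (SE 0.07, adjusted p = 0.00501), a factor of 1.19, in 9 of 10 mice (19.3% called). All 5 of these differences passed the threshold in this fit, although the gap of DMH minus PVN ran from -0.93 to 0.02 between mice.

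VMH exceeded ARC by a factor of 1.14, with a log2 difference for ARC minus VMH of -0.19 (95% interval -0.33 to -0.05, adjusted p = 0.0519) and VMH higher in 8 of 9 mice, beside 28.3% of genes called, so it passed the threshold of 0.1 as well. The exception was mouse Fed-127, with 1533 CPM in ARC and 1377 CPM in VMH. This difference was the least secure of the 6: its adjusted p rose to 0.552 under quantile normalisation, 0.309 in fed libraries alone and 0.2 without the batch covariate. It also rose above 0.1 when ARC of fasted mouse Fast-305 or fed mouse Fed-308, or all libraries of mouse Fast-100, Fed-125, Fast-305 or Fed-313, were left out, up to 0.198. The adjusted p was 0.0276 with mouse as a fixed block, 0.0323 with array weights and 0.0774 in fasted libraries alone. VMH and ARC are thus neighbours whose call depended on the settings, with VMH the higher in each of these fits.

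The same order was looked for within each state, where fewer libraries enter. In fed libraries DMH and PVN did not pass the threshold (log2 difference -0.19, SE 0.08, adjusted p = 0.121), and in fasted libraries ARC and PVN did not (0.25, SE 0.10, adjusted p = 0.129). Among the other pairs, the fed and the fasted libraries each separated VMH from DMH, VMH from PVN and ARC from DMH, with adjusted p of at most 0.000151. Within batches, all 18 differences (6 pairs in 3 batches) had the sign of the pooled ones, the largest being -0.91 for DMH minus VMH in batch 1 and the smallest -0.13 for DMH minus PVN in batch 2. The order VMH, ARC, PVN, DMH was thus found in each batch.

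**Figure D2:**
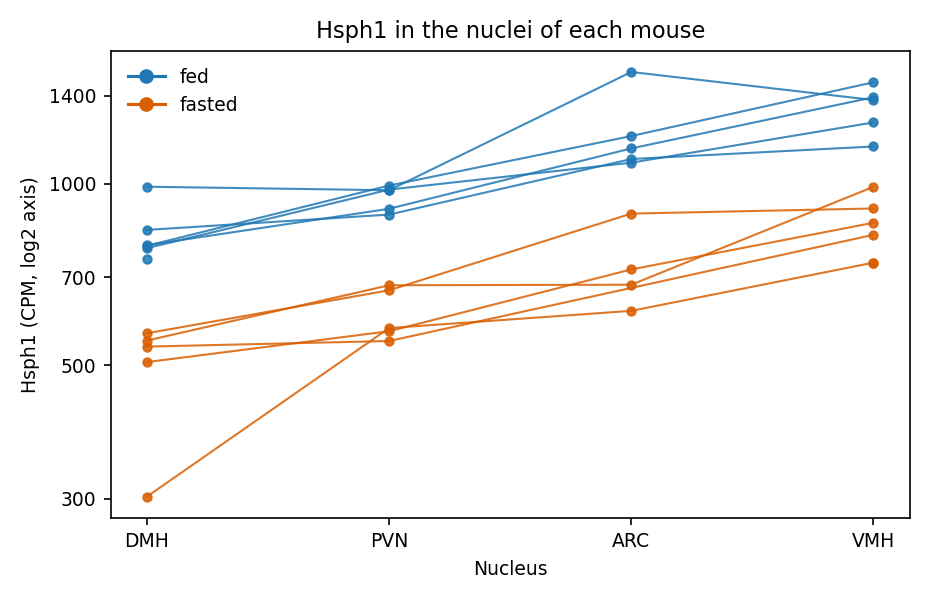
Hsph1 level in CPM (vertical axis, log2 scale) in DMH, PVN, ARC and VMH, with 1 line per mouse (fed in blue, fasted in orange) joining its measured nuclei. The lines climb from DMH to VMH, apart from mouse Fed-127, which fell slightly from DMH to PVN and from ARC to VMH.

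Of 10121 genes, 0.998% passed the threshold in all 6 pairs, in any order, and 2 (0.0198%) did so with the order of Hsph1, which includes the less secure step from ARC to VMH. These were Hsph1 and Tmem35a, a chaperone of nicotinic acetylcholine receptors named here after its values were seen. Other cell types varied between nuclei as well. The summed oligodendrocyte markers (Mbp, Mog, Mag and Mobp) averaged 867 CPM for VMH, 532 for DMH, 323 for PVN and 271 for ARC, and the neuronal markers Syt1 and Tubb3 (2 of 6) averaged 774, 744, 505 and 481 CPM in the same nuclei. Astrocyte markers (Aldh1l1 and Gja1, 2 of 6) averaged 90.7, 116, 107 and 68.4 CPM in VMH, DMH, PVN and ARC, highest where Hsph1 was lowest. Ependymal and tanycyte markers averaged 37.6 CPM in ARC and 9.79 to 11.6 CPM elsewhere, and endothelial markers 167 CPM in PVN and 59.7 to 87.7 CPM elsewhere. The part of cell composition in the Hsph1 levels was not tested.

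Fasted ARC held Hsph1 at 60.0% of the fed mean, fasted DMH at 59.7%, fasted PVN at 64.0% and fasted VMH at 63.3%. By batch, the log2 difference of fasted minus fed was between -0.91 and -0.76 in batch 2 and between -0.52 and -0.48 in batch 3 over the 4 nuclei. In batch 1 ARC gave -0.84, DMH -1.39, PVN -0.63 and VMH -0.64. Batch 3 therefore held a smaller difference in every nucleus, and batch 1 a wide spread, where ARC and PVN had 1 library per state and DMH had the 302 CPM library. Without that library the DMH difference was -0.63, against -0.82 with it.

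Absence of overlap with lower values in fasted libraries was found in 1.02% of 9123 genes for ARC, 0.186% for DMH, 0.614% for PVN and 0.252% for VMH. Hsph1 was the only 1 of these 9123 genes (0.011%) with it in all 4 nuclei. It was picked for its fall with fasting in all 4 nuclei, so this is a description. Just outside, with 3 nuclei each, were Mrpl42, a mitochondrial ribosomal protein gene, and Hmgcs1, an enzyme of the mevalonate pathway. In ARC the summed endothelial markers (Cldn5, Flt1, Kdr and Cdh5, 4 of 5) also did not overlap between states, at 44.4 to 56.1 CPM in fasted and 65.4 to 73.7 CPM in fed libraries. In the other nuclei the endothelial ranges overlapped, and their part in the Hsph1 difference was not tested.

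The partners of Hsph1 in the chaperone network were taken from 8 lists of 81 genes besides Hsph1, of which 33 were measured. In limma fits per nucleus, with p adjusted over all genes tested in that nucleus, 1 of 33 fell in ARC (0.0725% of all genes were called lower there) and none in DMH, PVN or VMH (0.0103%, 0.063% and 0.0208%). None of the 33 was called higher, beside 0.104% of all genes in ARC, 0.304% in PVN and 0% in DMH and VMH, where no gene of any kind was. There were 0, 2, 2 and 0 chaperone genes higher at an unadjusted p under 0.05 in ARC, DMH, PVN and VMH, where 4.39%, 3.1%, 5.01% and 3.43% of all genes were. At an unadjusted p under 0.05 by limma, 5 of 33 were lower in fasted ARC (15.2%, against 3.71% of all genes), 3 in DMH (9.09% against 3.53%), 4 in PVN (12.1% against 4.96%) and 6 in VMH (18.2% against 3.55%). The median log2 difference of the 33 was -0.02 for ARC, -0.09 for DMH, -0.16 for PVN and -0.26 for VMH, where the median of all genes was 0.02, 0.01, 0.01 and -5.18e-05. With 1 library left out, the median of the 33 ran from -0.09 to 0.12 for ARC and from -0.12 to -0.06 for DMH. For PVN it ran from -0.18 to -0.07 and for VMH from -0.29 to -0.19. With depth as a covariate the DMH median was 0.006. Of the 33 genes, 17, 21, 22 and 26 lay under 0 for ARC, DMH, PVN and VMH (51.5%, 63.6%, 66.7% and 78.8%), beside 48.3%, 48.6%, 49.2% and 50.01% of all genes.

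Hyou1, the endoplasmic reticulum member of the Hsp110 family, was the only relative of Hsph1 measured. It averaged 221 CPM in fasted and 201 CPM in fed ARC, and 339 and 267 CPM in PVN, with log2 differences of 0.08 (SE 0.12, limma adjusted p = 0.893) and 0.33 (SE 0.10, adjusted p = 0.259). In DMH and VMH it was -0.15 and 0.13 (adjusted p of 0.89 and 0.931). Its level was highest in PVN, 1.10 above VMH on the log2 scale (adjusted p = 1.13e-12) and 0.84 above DMH (adjusted p = 2.51e-09), an order unlike that of Hsph1.

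Among Hsp70 genes, the client-binding partners of Hsp110, 4 of 11 were measured. Their median log2 differences of fasted minus fed were -0.0007, -0.17, -0.14 and -0.34 in ARC, DMH, PVN and VMH. Of the 4, 2 lay under 0 in ARC and 3 in each other nucleus. Those above 0 included Hspa2 in ARC (0.86) and Hspa12b in PVN (0.80) and VMH (0.87). Hspa1a, the heat-inducible Hsp70 gene, was low: in fasted ARC it ranged from 1.61 to 6.08 CPM and in fed ARC from 8.42 to 16.6 CPM. The ranges did not overlap in ARC, while in DMH, PVN and VMH they did. In log2 units ARC gave -1.66 (SE 0.47, limma adjusted p = 0.343), DMH -0.74 (0.867), PVN -0.72 (0.591) and VMH -0.97 (0.781), none past the threshold. With 1 library left out, the Hspa1a difference ran from -2.04 to -1.33 in ARC and from -1.14 to -0.30 in DMH. In PVN it ran from -0.93 to -0.35 and in VMH from -1.48 to -0.71. Hspa1a has a near-identical copy, Hspa1b, which can share its reads, so its value is uncertain.

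Of the 15 listed J-domain proteins, which hand clients to Hsp70, 6 were measured and none passed the threshold. Their medians were 0.05, -0.10, -0.10 and -0.18 in ARC, DMH, PVN and VMH. Dnajb5 had the largest positive difference of these in PVN, 0.83 (SE 0.26, limma adjusted p = 0.259). Of 11 other Hsp70 exchange factors and co-chaperones, 6 were measured, and the values of Bag3, a stress-inducible exchange factor, were 0.03, 0.36, -0.23 and -0.48 in the same order (limma adjusted p of 0.876 to 0.987). The Hsp90 co-chaperones Ptges3 and Fkbp4 (2 of 11 on the list) were below 0 in every nucleus. Fkbp4, a steroid receptor immunophilin, was at -0.31, -0.54, -0.16 and -0.26 (limma adjusted p of 0.539, 0.541, 0.749 and 0.709), which did not pass.

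The chaperonins fold actin and tubulin in the cytosol and many proteins in mitochondria. Of 16 chaperonin and prefoldin genes 7 were measured, and in VMH all 7 differences lay under 0, in PVN 6, in ARC 5 and in DMH 3. Cct7, a subunit of the cytosolic CCT ring, was the chaperone that fell in ARC. It read 212, 169, 197 and 186 CPM in fasted mice Fast-100, Fast-305, Fast-311 and Fast-86, and 309, 325, 419, 284 and 273 CPM in fed mice Fed-111, Fed-125, Fed-127, Fed-308 and Fed-313. The states did not overlap, and mouse Fed-127 was again highest.

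The Cct7 difference in ARC was -0.69 on the log2 scale (SE 0.11, limma adjusted p = 0.0267). It lost the threshold without fasted mouse Fast-100 (adjusted p = 0.254), without fed mouse Fed-308 (0.108) and without the batch covariate (0.314). In DMH, PVN and VMH it was -0.30, -0.42 and -0.50 (adjusted p of 0.721, 0.155 and 0.281). The other measured CCT subunits in ARC, Cct2, Cct6a and Tcp1, were at 0.01, -0.34 and -0.43 (adjusted p of 0.982, 0.615 and 0.424), and the median of the 7 chaperonin and prefoldin genes there was -0.34.

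The remaining lists held no gene past the threshold. Of 8 small heat-shock protein genes 4 were measured, among them Cryab, which holds unfolded protein in oligodendrocytes and astrocytes and was at -0.54 in VMH (SE 0.20, limma adjusted p = 0.619). Of 6 genes for heat-shock factors and their regulator 3 were measured. Hsbp1, which binds Hsf1 and damps it, was at 0.18, -0.09, 0.15 and 0.10 in ARC, DMH, PVN and VMH (limma adjusted p of 0.665, 0.896, 0.702 and 0.905). Hsf1 and Hsf2 themselves were not analysed here.

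The cold-inducible RNA-binding proteins Cirbp and Rbm3 are known to rise when cells cool, as heat-shock genes rise with warmth. Cirbp read 36.5 to 81.5 CPM in fasted and 23.4 to 51.6 CPM in fed PVN, ranges that overlapped through the 36.5 CPM of mouse Fast-86. Its log2 difference there was 0.74 (SE 0.17, limma adjusted p = 0.0855, where 0.304% of genes were called higher), and 1 of the 10 fits with a library left out kept it past the threshold. ARC, DMH and VMH gave 0.68, 0.68 and 0.89 (adjusted p of 0.254, 0.695 and 0.45). Rbm3 was at 0.85, 0.45, 0.54 and 1.09 in ARC, DMH, PVN and VMH (adjusted p of 0.262, 0.785, 0.499 and 0.161), none past the threshold. The Cirbp ranges of fasted and fed DMH did not overlap, at 66.5 to 102 against 27.8 to 65.3 CPM, while those of ARC and VMH did. In ARC and VMH the Rbm3 ranges of the states did not overlap, at 48.7 to 59.0 against 20.2 to 36.5 CPM in ARC and 45.5 to 79.0 against 20.3 to 38.7 CPM in VMH. Of 9123 genes, 192 were higher in fasted libraries without overlap in 1 nucleus and 7 in 2 nuclei.

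**Figure D3:**
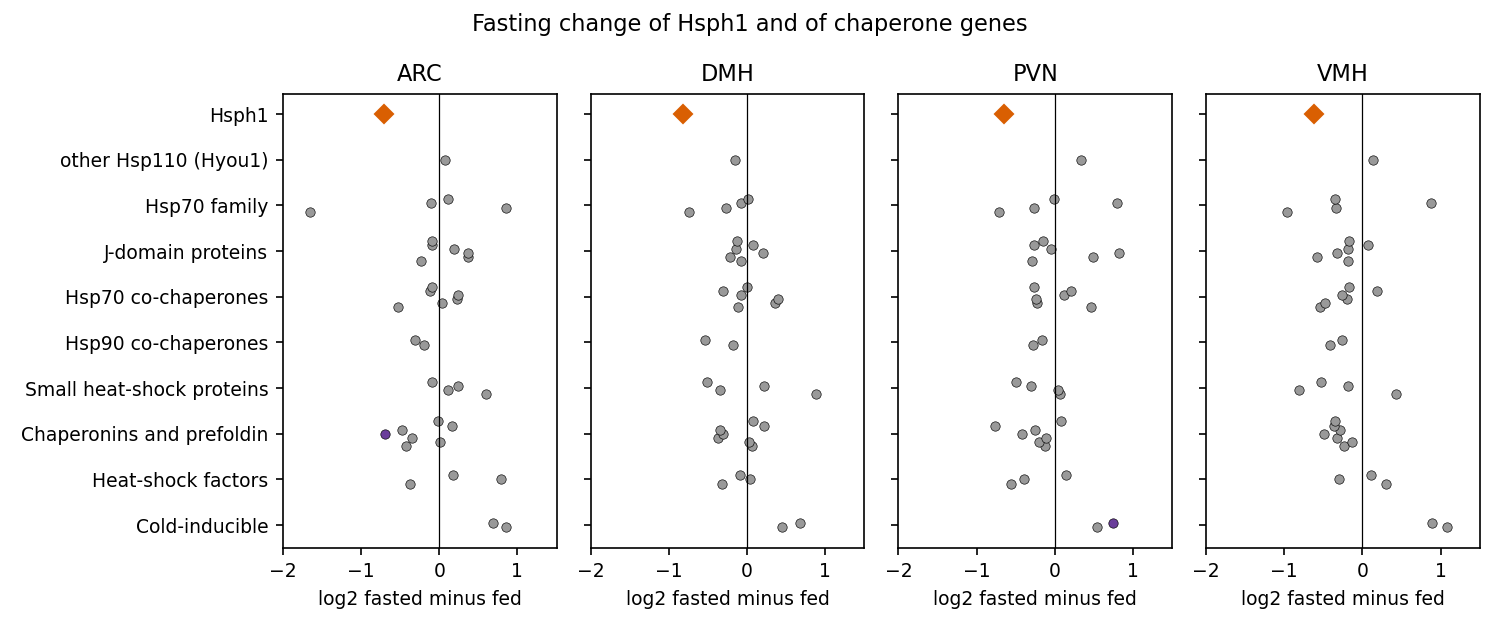
Log2 difference of fasted minus fed (horizontal axis) in each nucleus for Hsph1 (orange diamond, description only) and for each measured chaperone and cold-inducible gene by list; purple circles passed the limma threshold of 0.1 and grey ones did not. Hsph1 lies between -0.82 and -0.63 in all nuclei, while chaperone genes lie on both sides of 0, with 26 of 33 under it in VMH, both cold-inducible genes lie above 0 in every nucleus, and Cct7 in ARC and Cirbp in PVN are the purple ones.

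Between nuclei none of the 33 chaperone genes passed the threshold in all 6 pairs with the order of Hsph1. Dnaja2, Dnaja4 and Hsf5 had the signs of Hsph1 in all 6 pairs. Of these, Dnaja2 passed for ARC minus DMH and DMH minus VMH (limma adjusted p of 0.0651 and 0.0134), and Dnaja4 and Hsf5 passed for no pair. In limma with p adjusted over genes and pairs, 13 of 33 were higher in ARC than in DMH and 3 lower, beside 19.3% of all genes called either way. Against VMH, 14 were higher in ARC and 4 lower (28.3% of all genes), where Hsph1 was higher in VMH. Between ARC and PVN 2 were higher in ARC and 3 lower (18.3%). Of the 33, 1 was higher in DMH than in PVN and 7 lower (19.3%), 9 were higher in PVN than in VMH and 3 lower (29%), and 4 were called each way between DMH and VMH (23.2%). Hspb8, a small heat-shock protein that works with Bag3, was 2.75 higher in ARC than in VMH on the log2 scale (adjusted p = 1.6e-09), and Bag3 1.71 higher (adjusted p = 4.33e-05). Hspe1 and Cct7 were 0.49 and 0.37 higher in ARC than in DMH (adjusted p of 0.00703 and 0.00149), the direction of Hsph1 in that pair.

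Whether other genes went with Hsph1 from mouse to mouse was asked within nucleus, state and batch, where the fasting contrast is absent. This left 34 libraries in 17 pairs, from 6 pairs of mice, so pairs of the same mice in different nuclei are not independent. Both libraries of a pair deviate from their mean by the same amount in opposite directions. An r over the 34 libraries in this model thus rests on 17 pairs, and an r within a single nucleus on only a few of them. Within pairs Hsph1 differed by a median of 0.09 on the log2 scale, from 0.002 to 0.39. The largest gaps were in ARC between mice Fast-311 and Fast-305 (0.39), in ARC between mice Fed-127 and Fed-125 (0.35) and in DMH between mice Fed-127 and Fed-125 (0.33), and these weigh most in what follows.

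No gene followed Hsph1 at an adjusted p under 0.1 among 10120 tested with limma (0% called), and the smallest adjusted p was 0.432. At an unadjusted p under 0.05, 716 genes (7.08%) did. Pearson's r with Hsph1 over the 34 libraries is thus given as a description. Among 7638 genes with a mean of at least 5 CPM it was highest for Rpl12, a ribosomal protein, at 0.81, Tubb4b, a beta-tubulin, at 0.78, and Rerg, a Ras-like GTPase, at 0.77. Rpl12 and Tubb4b have close copies in the genome, so their values are uncertain. Then came Map7d2, a microtubule-associated protein (0.77), Copb2, a subunit of the COPI vesicle coat (0.77), Chpf, which makes chondroitin chains (0.76), Acat3, an acetyl-CoA acetyltransferase (0.76), Arl6ip4 (0.75), Dnajc2 (0.73) and Ppfia2, a liprin of the presynapse (0.72).

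These ranks depended on the model. With 8 group means and batch fitted additively, r was 0.55 for Rpl12, 0.34 for Tubb4b, 0.26 for Rerg, 0.31 for Map7d2, 0.21 for Copb2, 0.46 for Chpf and 0.23 for Dnajc2.

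Copb2 had the same direction as Hsph1 in most pairs when each nucleus, state and batch had its own mean. Spearman's rho was 0.85, and Copb2 was higher in the mouse with more Hsph1 in 15 of 17 pairs. By nucleus, with few pairs in each, r was 0.95 for ARC, 0.98 for DMH, 0.51 for PVN and 0.93 for VMH. Without the 2 libraries farthest from the median, which form the ARC pair of mice Fast-311 and Fast-305, r was 0.83. The slope of Copb2 was 1.51 (SE 0.38, limma adjusted p = 0.432). Dnajc2, a ribosome-bound J-domain protein that works with Hsp70 on nascent chains, was not on the chaperone lists. Its r was positive in all nuclei too (0.73, 0.73, 0.70 and 0.83), with the same direction in 12 of 17 pairs. By contrast the r in PVN was -0.32 for Rpl12, -0.20 for Tubb4b and -0.68 for Ppfia2, and the r in VMH was -0.09 for Acat3.

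The lowest r belonged to Lin9, a cell-cycle regulator (-0.75), the transcription factors Mef2a (-0.74) and Bcl11a (-0.74), Frmd6 (-0.73) and the noncoding Gt(ROSA)26Sor (-0.69). In the additive model these were -0.09, -0.26, -0.35, -0.42 and -0.43. None of these 15 genes passed the threshold for fasting in a nucleus.

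Of the 33 chaperone genes, 26 had an r above 0 (78.8%, against 50.7% of all genes), with a median of 0.17 against 0.005. Cct7 had the highest r of the 33 at 0.65, with r of 0.92, 0.93 and 0.90 in ARC, DMH and PVN and -0.07 in VMH (limma adjusted p = 0.548). Tcp1 was at 0.54 and Ptges3, the Hsp90 co-chaperone p23, at 0.50, while Cirbp was at -0.40 (adjusted p of 0.674, 0.676 and 0.752). In the additive model Cct7, Tcp1, Ptges3 and Cirbp were at 0.43, 0.31, 0.46 and -0.41. Between mice Fed-127 and Fed-125 in fed DMH, Hsph1 was 0.33 higher in mouse Fed-127, Cct7 0.64 higher and Copb2 0.93 higher. Cirbp was 0.51 lower in that mouse (log2 -0.51). In another fed DMH pair, mice Fed-111 and Fed-92, Hsph1 was 0.16 higher in mouse Fed-111 and Cirbp 0.95 higher. The r of Cirbp was strongly negative for ARC (-0.99) and VMH (-0.72), but near 0 for DMH (-0.09) and PVN (-0.04). Rbm3 had an r of -0.14, positive for ARC (0.29) and PVN (0.37) and negative for DMH (-0.44) and VMH (-0.79).

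**Figure D4:**
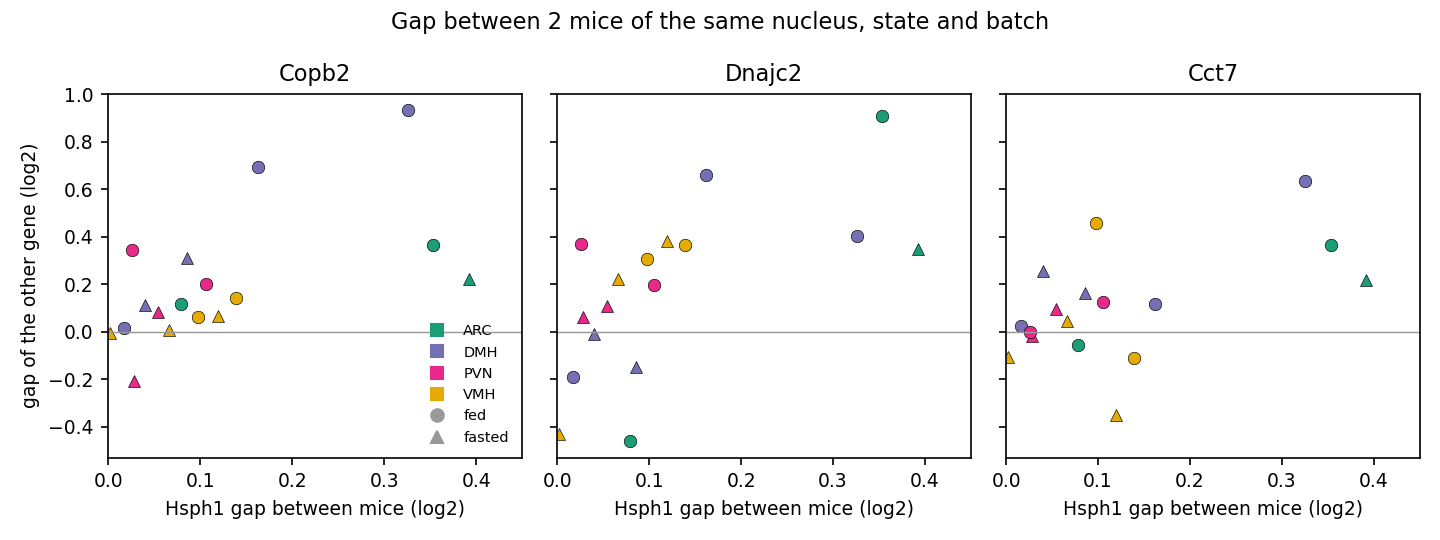
Each point is a pair of mice of the same nucleus (colour), state (circle fed, triangle fasted) and batch: the horizontal axis is how much higher Hsph1 was in the mouse with more of it, and the vertical axis the gap of Copb2, Dnajc2 or Cct7 between the same mice, both log2. Copb2 is above 0 in 15 of 17 pairs, and the 3 pairs with the largest Hsph1 gap, 0.33 to 0.39, are above 0 in each panel.

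Measures of the libraries moved with Hsph1 to different extents within nucleus, state and batch. Over the 34 libraries its r was 0.007 with log2 depth, -0.14 with the number of genes at 0 and 0.19 with the total CPM. With summed markers it was 0.42 for neurons, -0.12 for astrocytes, -0.38 for oligodendrocytes, -0.04 for microglia, -0.27 for endothelial cells and -0.58 for ependymal cells and tanycytes (Foxj1 and Col23a1, 2 of 5 listed). For the markers of the nuclei it was 0.05 for ARC, 0.20 for DMH, 0.54 for PVN and 0.17 for VMH. The r was thus farthest from 0 for ependymal and PVN markers, but both sums were low in most nuclei. The PVN markers averaged 2.47 to 4.54 CPM outside PVN and were at 0 in a fasted VMH library. The ependymal markers averaged 9.79 to 11.6 CPM outside ARC. These r thus rest in part on few reads, and the part of these markers in the genes that went with Hsph1 was not tested.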

How the data were processed

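RNA from laser-captured nuclei had been amplified and sequenced, and per the labels the authors mapped reads to GRCm38. The submitters' processing notes name CASAVA 1.7, TopHat2 2.0.11, Cufflinks 2.2.1, edgeR and limma, and the use of strand is not given in the sources used here. The authors deposited CPM (reads scaled to a common total per library) for each Ensembl gene. Symbols and coordinates came from GENCODE M21 for 9891 of 10127 genes. A further 2 columns, named for ARC of mice Fast-85 and Fed-92, matched no sample, and 2 of 43 samples, labelled PVN of these same mice, were not analysed here, so which nucleus they hold is unclear and neither was used for ARC or PVN. The depth came from a step of which 97.0% to 98.7% of low values were multiples (tolerance 0.05), but 101 genes held positive values under 0.01 CPM, so reads were not recovered and no count test was run.

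Hsph1, the gene lists and the tests were chosen with earlier results of these data known. Genes at 1 CPM or more in as many libraries as the smallest group were tested with limma 3.58.1 in R 4.3.3 (eBayes with a trend) on log2(CPM + 0.5), which understates changes of low genes. Between nuclei, 8 group means and batch were fitted; for fasting, libraries of 1 nucleus with batch; for genes that follow Hsph1, its log2 level beside a mean for every nucleus, state and batch. Tests were 2-sided, with Benjamini-Hochberg adjustment and a threshold of 0.1. Named genes were Hsph1, listed genes past a threshold, Hsp110 relatives, Cirbp, Rbm3, and the 10 highest and 5 lowest r with Hsph1; others on the lists serve as examples chosen after their values were seen. 1 cell type marker is not reported here. On simulated data over 10127 genes, 82.5% to 84% of 200 genes raised 1 log2 unit in VMH were recovered, 87% and 90% of 200 fasting changes of 1.5 in ARC and DMH, and 80% of 200 genes with an r of 0.9 to Hsph1 (27% with mouse as a block).

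The mouse number pairs nuclei of the same brain. Deviations from group means of 57 same-mouse library pairs correlated at -0.12 to 0.02 across genes, and those of other mice of the same state and batch at -0.17 to 0.04. Alternatives were other pseudocounts, filters, scalings and covariates, each library or mouse left out, and mouse as a block. Those leaving out batch 1, or mice Fast-85 and Fed-92, were chosen after seeing the data.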

Additional observations from a re-analysis of the deposited data

Results flagged for a closer look

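The 8 groups of Hsph1, Cct7, Hspa1a, Hyou1, Cirbp and Rbm3 were examined for a library far from the others of its group, 48 groups in all, of which chance alone would give about 2.4, and 6 were found. For Hsph1 these were the fasted DMH library of mouse Fast-86 at 302 CPM (others 506 to 565 CPM), the fed ARC library of mouse Fed-127 at 1533 CPM (others 1084 to 1200 CPM) and the fed DMH library of mouse Fed-127 at 989 CPM (others 749 to 838 CPM). Cct7 was lowest in fasted VMH of mouse Fast-305 at 139 CPM, against 171 to 185 CPM. In fasted PVN of mouse Fast-86, Hyou1 was at 486 CPM against 268 to 326 CPM, and Cirbp at 36.5 CPM against 71.4 to 81.5 CPM.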

How the results depend on the processing

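The differences of Hsph1 between VMH and DMH, VMH and PVN, and ARC and DMH kept their direction and call under all 16 alternatives and 53 fits without a library or mouse. ARC minus VMH was -0.065 under quantile normalisation, -0.18 without batch, -0.14 in fed libraries and -0.19 without a trend (adjusted p of 0.552, 0.2, 0.309 and 0.144), and -0.23 to -0.15 without a library or mouse (adjusted p of 0.0145 to 0.198). DMH minus PVN was -0.19 in fed libraries and ARC minus PVN 0.25 in fasted libraries, neither past the threshold. These subsets have fewer samples; for the other settings the cause was not tested.

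With mouse as a replicate block, the Hsph1 differences were 0.55 for ARC minus DMH, 0.29 for ARC minus PVN, -0.20 for ARC minus VMH, -0.26 for DMH minus PVN, -0.76 for DMH minus VMH and -0.50 for PVN minus VMH (adjusted p of 0.0276 or less), and no call changed. With the block 0 genes followed Hsph1, in a fit that recovered 27% of 200 simulated followers.

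With additive group means and batch, the r of the 15 named genes ranged from 0.21 to 0.55 for the 10 highest and from -0.43 to -0.09 for the 5 lowest, and the cause was not tested. The count of genes that follow Hsph1 became 1 under quantile normalisation (Ak6, r 0.81), and 1 without batch 1 or without mice Fast-85 and Fed-92 (Cacna1c, a calcium channel subunit, r -0.81). Leaving out a library or mouse gave 0 to 1, with Cacna1c called without mouse Fed-111 or Fed-92 or the DMH library of either. Chaperones called lower in ARC were 0 without batch, and 0 to 1 without a library. Chaperones called higher in PVN were 1 with depth as a covariate (Dnajb5, 0.96, adjusted p = 0.0422), where Hspa1a in DMH turned to 0.96 (adjusted p = 0.903). Cold-inducible genes called higher in PVN were 0 with a pseudocount of 0.1, trimmed-mean scaling, quantile normalisation, no batch or 1 fit over all libraries, and in VMH 1 (Rbm3) with 1 fit over all libraries or without mice Fast-85 and Fed-92. Without a library these counts were 0 to 1 in PVN and 0 to 1 in VMH.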
